A study of Mus musculus with 5 samples.

Results

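Described here are 32 genes of the p53 pathway and of apoptosis in embryonic mouse heart ventricles after caffeine exposure, read out of a table of 18307 RefSeq genes. They were chosen by symbol: 21 were listed as p53 itself, its regulators and its transcriptional targets, and 11 as the BCL2 family and the caspase side of apoptosis. All 32 were in the table and all 32 passed the filter on low counts. Bax, Bbc3 and Pmaip1 belong to both sides and were counted with the p53 targets.

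The ventricles came from CD-1 embryos, an outbred mouse strain, at embryonic day 10.5. The dams of the caffeine group had been injected daily with caffeine at 20 mg/kg from embryonic day 6.5 to 9.5, and those of the vehicle group with 0.9% NaCl on the same days. There were 2 vehicle and 3 caffeine libraries, and each library is a pool of ventricles from embryos that shared dams, so the spread between libraries is a spread between pools and not between single embryos. The labels name no genetic change in either group. In such tissue pools, fewer cells of a type and less RNA per cell cannot be told apart.

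The protein p53 is a transcription factor that is made continuously and destroyed continuously. Mdm2 tags it for destruction and Mdm4 holds it inactive, and both are released from it when kinases such as Atm and Chek2 report DNA damage or other stress. Stabilised p53 then switches on genes that stop the cell cycle (Cdkn1a), that feed back on p53 (Mdm2) or that start death (Bax, Bbc3, Pmaip1). Whether a cell dies is then settled at the mitochondrion, where Bax and Bak1 make pores that Bcl2, Bcl2l1 and Mcl1 prevent, and where released cytochrome c lets Apaf1 activate Casp9. In mouse embryos, loss of either Mdm2 or Mdm4 is lethal, and removing p53 as well rescues the embryos.

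The p53 half-site is a decamer, and p53 binds pairs of them. RefSeq promoter sequences (GRCm38.p6, 250 bases before to 50 bases after a start site) were found for 28 of the 32 members, and each was searched for perfect matches to the p53 half-site, which reads alike on both strands. Zmat3, Trp53inp1, Perp and Pmaip1 had no entry. A half-site was present for 8 of the 17 p53 genes with a promoter (47.1%) and for 0 of the 11 BCL2 family and caspase genes, against 9.55% of all 27025 genes with a promoter. By promoter rather than by gene, the share was 36.4% of 22 promoters for the p53 genes, 0 of 17 for the others, and 8.36% of all 32851. Cdkn1a alone held 2 perfect half-sites within the largest spacer allowed, 13 bases, which is true of 0.0740% of all genes. A match describes these letters only. The windows below are shown because, among these members, half-sites were found only in genes counted with p53. Of these, Bax is also a BCL2 family member. The p53 genes were listed as such beforehand, so their share is no independent support for that listing. The 11 other genes are too few to set 0 apart from the 9.55% of all genes. Each runs 5′ to 3′ on the strand of its gene, with perfect half-sites in capitals. Decamers with a mismatch were not searched for and stay in lower case. In Cdkn1a, the decamer directly after the last marked half-site misses the pattern at its first base only. The capitals therefore do not show which decamers p53 pairs.
Cdkn1a, chr17:29090886-29090957, plus strand: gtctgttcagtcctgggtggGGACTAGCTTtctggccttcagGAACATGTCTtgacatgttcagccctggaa
Mdm2, chr10:117710915-117710964, minus strand: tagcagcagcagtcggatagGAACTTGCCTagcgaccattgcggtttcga
Ccng1, chr11:40755442-40755491, minus strand: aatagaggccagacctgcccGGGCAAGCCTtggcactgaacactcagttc
Bax, chr7:45467070-45467119, minus strand: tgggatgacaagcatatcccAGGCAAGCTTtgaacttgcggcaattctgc
Trp53, chr11:69580264-69580313, plus strand: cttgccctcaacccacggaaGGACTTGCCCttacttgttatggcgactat
The Cdkn1a window lies upstream of the distal start site, that of the transcript NM_001111099, with the half-sites beginning 73 and 51 bases before the start site. Gadd45a, Ei24 and Sesn1 were the other members with a half-site.

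The tissue carried the defining markers of ventricle: Myl2, the ventricular myosin light chain, lay between 3237 and 5147 counts per 1000000 (CPM) and Myh7 between 6957 and 9289 CPM. The 8 ventricular markers summed to 22592 and 24356 CPM under vehicle and to between 18140 and 21110 CPM under caffeine, so the sums did not overlap. Myh6, Myh7 and Myl2, the most abundant of them, were each lower in every caffeine library. The other 5 overlapped between groups, and the transcription factors Nkx2-5 and Irx4 had positive log2 fold changes of 0.13 and 0.13. The 8 erythroid markers ran from 6182 to 10729 CPM under vehicle and from 6509 to 10258 CPM under caffeine. The 8 markers of hepatic and foregut endoderm ran from 10.5 to 135 CPM under vehicle and from 8.49 to 44.5 CPM under caffeine, and they were highest in vehicle replicate 2. Alb was at 0 in 3 of the 5 libraries. The 5 macrophage markers never passed 7.52 CPM in sum. The part of these differences in the values below was not tested. Library depth ran from 21713381 to 25048134 counts over all genes.

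Per transcript length, the members spanned a wide range of levels. Expressed as counts per kilobase of the longest RefSeq transcript, scaled like CPM (RPKM), Bax was at 62.8 ± 8.33 RPKM (mean and SD over the 5 libraries), followed by the cyclin Ccng1 (58.5 ± 5.34 RPKM), the death inhibitor Mcl1 (57.7 ± 2.24 RPKM), Trp53 itself (54.8 ± 7.17 RPKM) and Ei24 (47.5 ± 1.83 RPKM). These neighbours did not differ beyond their spread. Below Ei24 the next was Bak1 at 41.3 ± 6.33 RPKM, so the pore formers Bax and Bak1 were both among the 6 highest members. The BH3-only genes, whose products start death by binding the other BCL2 proteins, ran from Bad at 16.8 ± 1.20 RPKM through Bcl2l11 at 6.74 ± 0.909 RPKM, Bid at 3.90 ± 0.312 RPKM and Bbc3 at 3.45 ± 0.754 RPKM to Pmaip1 at 0.434 ± 0.0889 RPKM. Fas, the death receptor, stood beside Pmaip1 at 0.537 ± 0.158 RPKM. Fas and Pmaip1 are the members limited by depth, with 14 to 28 and 22 to 33 counts per library.

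**Figure D1:**
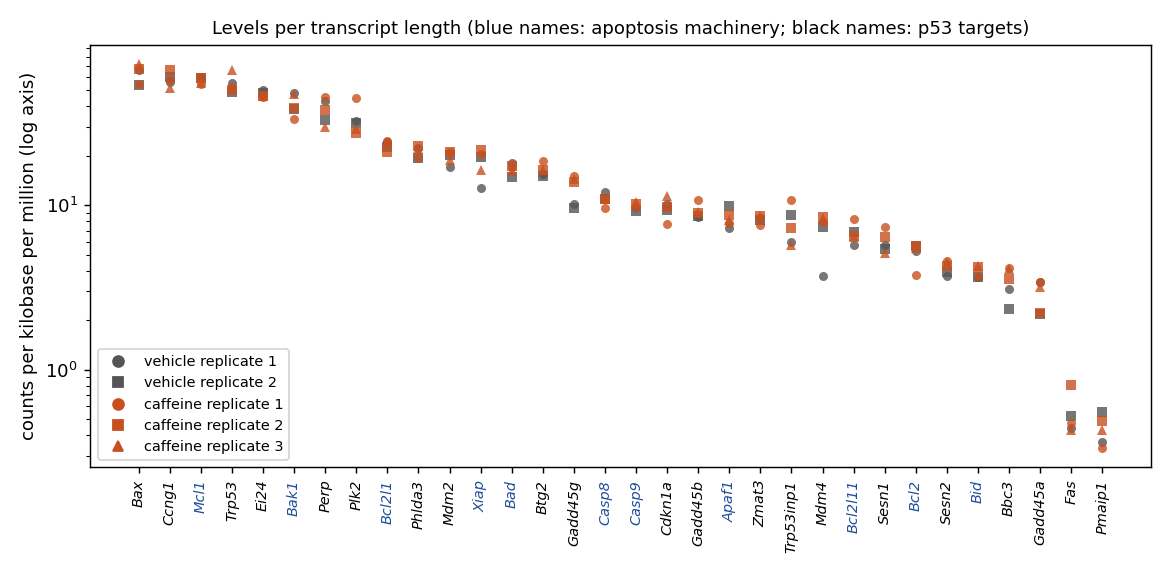
Level of each member per transcript length (vertical log axis, RPKM), 1 point per library, genes ordered by their mean. Bax, Ccng1, Mcl1 and Trp53 sit at the upper end and Fas and Pmaip1 at the lower end, apart from the rest.

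Among the inhibitors of death, Mcl1 was above Bcl2l1 (23.4 ± 1.47 RPKM), and Bcl2l1 above Bcl2 (5.18 ± 0.813 RPKM), with no library overlapping between neighbours in that order. On the caspase side, Xiap, which blocks active caspases, was at 18.2 ± 3.60 RPKM, above Casp8 (10.9 ± 0.846 RPKM), Casp9 (9.84 ± 0.474 RPKM) and Apaf1 (8.37 ± 0.986 RPKM), and the last 3 overlapped as neighbours. Cdkn1a, the best known arrest target of p53, was in the middle of the members at 9.69 ± 1.35 RPKM.

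The design asks whether caffeine exposure altered the expression of these genes. No member passed a Benjamini-Hochberg adjusted p of 0.05 over the 13829 genes tested (edgeR quasi-likelihood test), in a comparison where 1 gene in all, 0.00723%, passed. The smallest adjusted p of a member was 0.725 with edgeR, and DESeq2 and limma-voom also called 0 members, where they called 0.138% and 0.00723% of the genes they gave an adjusted p. Before adjustment, 3 of 32 members had an edgeR p under 0.05, all 3 higher in caffeine. They were Gadd45g and Bbc3, listed here as p53 targets, and Mdm4, a regulator of p53. Over all genes 5.20% had an edgeR p under 0.05, 3.13% higher and 2.07% lower. With DESeq2 there were 2 such members and with limma-voom 3. Leaving out 1 library left 0 members called each time, while the number of genes called overall was 0 when vehicle replicate 1 was dropped, 8 on dropping vehicle replicate 2, 18 on dropping caffeine replicate 1 and 2 on dropping caffeine replicate 2.

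For 9 of the 32 members the vehicle and caffeine libraries were separate, 8 with every caffeine library above and 1 below. Over all genes tested, 20.4% did not overlap, 11.2% with every caffeine library above and 9.27% below. All log2 fold changes below are caffeine minus vehicle.

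Gadd45g, a stress-induced partner of cell cycle kinases and stress kinases, had the smallest p of all members. Its levels were 10.9 and 10.3 CPM under vehicle and 16.1, 14.8 and 15.4 CPM under caffeine. Every caffeine library was above both vehicle libraries, by more than the spread within either group. The log2 fold change was 0.54 (SE 0.17, 95% interval 0.18 to 0.90, edgeR adjusted p = 0.725), and it ran from 0.48 to 0.58 when 1 library was left out. The adjusted p ran from 0.399 to 1.00 over the alternatives. Its relatives were flatter. Gadd45b had 10.9 and 11.1 CPM under vehicle and 13.9, 11.5 and 11.7 CPM under caffeine, where caffeine replicate 1 stood out (log2 fold change 0.17, SE 0.18; 0.08 without that library). Gadd45a, the DNA damage member of the trio and the one with a p53 half-site, ranged from 2.69 to 4.19 CPM with overlapping groups (0.07, SE 0.29; -0.23 without vehicle replicate 2). Its count is uncertain without strand, since 19.1% of its exonic bases overlap E230016M11Rik on the opposite strand.

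Mdm4 had the largest log2 fold change, 0.57 (SE 0.25, 95% interval 0.02 to 1.12, edgeR adjusted p = 0.949). Its levels were 13.1 and 25.7 CPM under vehicle and 27.6, 29.7 and 29.1 CPM under caffeine. The caffeine libraries lay close together, and vehicle replicate 1 alone was far below the other 4 libraries. Without vehicle replicate 1 the log2 fold change was 0.16, and without vehicle replicate 2 it was 1.11 (edgeR adjusted p = 0.0641). Mdm4 is a single transcript in the RefSeq table, on chromosome 1 from 132989845 to 133025348 (mm10, minus strand).

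Its partner Mdm2, both the destroyer of p53 and a target of it, had 53.4 and 62.6 CPM under vehicle and 65.7, 65.5 and 58.2 CPM under caffeine. The groups overlapped, with a log2 fold change of 0.12 (SE 0.14, 95% interval -0.18 to 0.43). It was 0.01 without vehicle replicate 1 and 0.22 without vehicle replicate 2. Trp53 had 104 and 91.0 CPM under vehicle and 97.9, 94.2 and 125 CPM under caffeine, and caffeine replicate 3 alone was above both vehicle libraries (0.12, SE 0.15; -0.02 without that library).

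Cdkn1a, which encodes the cyclin kinase inhibitor p21, showed no shift in either direction beyond its spread. It had 19.6 and 17.9 CPM under vehicle and 14.7, 18.8 and 21.7 CPM under caffeine. The caffeine libraries lay on both sides of the vehicle pair, and the log2 fold change was -0.03 (SE 0.18, 95% interval -0.42 to 0.36; -0.17 without caffeine replicate 3 and 0.11 without caffeine replicate 1). Its transcripts, which start at different promoters, did likewise. Both start sites lie downstream of the half-sites shown above, that of NM_001111099 nearer and that of NM_007669 further away. NM_001111099 had 6.66 and 6.67 CPM under vehicle and 4.98, 5.35 and 8.58 CPM under caffeine (-0.08, SE 0.30), and NM_007669 had 0.001 (SE 0.22). NM_001111099 held between 28.6% and 39.5% of the Cdkn1a counts in every library.

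Of the other arrest genes, Btg2, an antiproliferative gene that p53 and growth stimuli both induce, had 42.6 and 41.4 CPM under vehicle and 50.8, 44.9 and 45.1 CPM under caffeine. All caffeine libraries were above vehicle, by little outside caffeine replicate 1 (log2 fold change 0.16, SE 0.14; 0.10 without that library). The polo-like kinase Plk2 ranged from 77.1 to 126 CPM, both extremes being caffeine libraries, and its value went from 0.07 (SE 0.20) to -0.19 without caffeine replicate 1. Ccng1 (182 to 232 CPM, 0.01, SE 0.13) and the RNA-binding Zmat3 (59.1 to 67.5 CPM, -0.0009, SE 0.13) overlapped between groups. The 12 immediate early genes, a class induced by many of the stimuli that induce Btg2, Gadd45b and Plk2, summed to 299 CPM in caffeine replicate 1, against 238 and 293 CPM in the other caffeine libraries and 267 and 240 CPM under vehicle. Their part in these values was not tested.

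**Figure D2:**
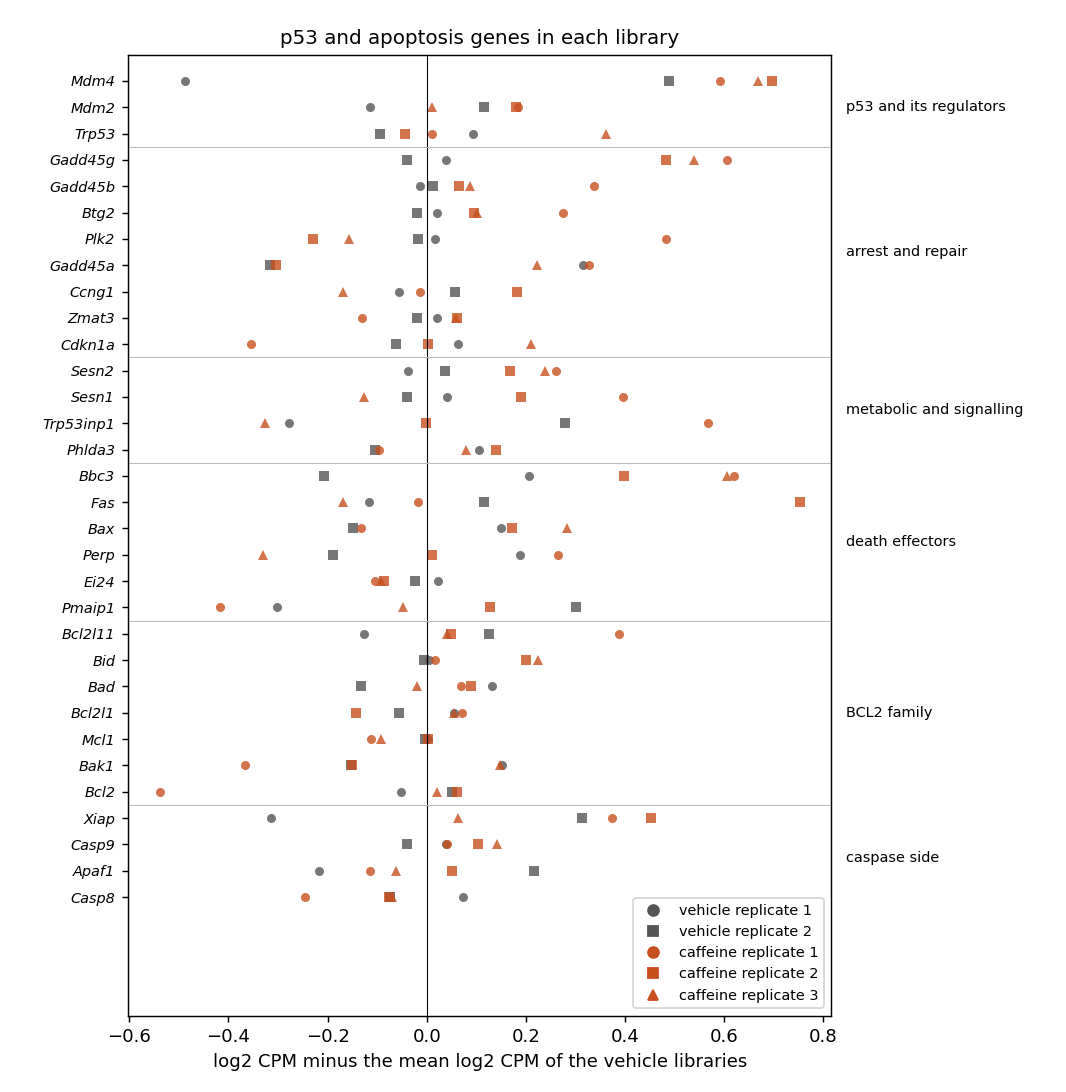
Each member in each library as log2 CPM minus the mean of the vehicle libraries (horizontal axis), grouped by role, with vehicle in grey and caffeine in orange and 1 marker shape per replicate number. Gadd45g, Bbc3 and Sesn2 have all 3 caffeine points to the right of both vehicle points, while Mdm4 and Xiap have vehicle replicate 1 far to the left.

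Of the targets that act on metabolism and signalling, Sesn2, a brake on mTORC1 under stress, had 12.9 and 13.6 CPM under vehicle and 15.9, 14.9 and 15.7 CPM under caffeine. Its groups did not overlap (log2 fold change 0.22, SE 0.16, 95% interval -0.12 to 0.57), and the value ran from 0.18 to 0.25 with 1 library left out. Sesn1 did overlap, with 22.0 and 20.8 CPM under vehicle and 28.1, 24.4 and 19.6 CPM under caffeine (0.17, SE 0.17; 0.04 without caffeine replicate 1 and 0.30 without caffeine replicate 3). Trp53inp1, an autophagy and death cofactor of p53, ranged from 31.2 to 58.0 CPM, highest in caffeine replicate 1 and lowest in caffeine replicate 3 (0.10, SE 0.28; -0.18 without caffeine replicate 1). Phlda3, which restrains Akt, ranged from 27.9 to 33.0 CPM (0.04, SE 0.15).

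Among the death effectors, Bbc3, which encodes the BH3-only protein PUMA, had 5.64 and 4.24 CPM under vehicle and 7.52, 6.45 and 7.44 CPM under caffeine. All caffeine libraries were above vehicle. The log2 fold change was 0.53 (SE 0.22, 95% interval 0.05 to 1.01, edgeR adjusted p = 0.949), 0.31 without vehicle replicate 2 and 0.75 without vehicle replicate 1. The counts behind it were 137 and 93 under vehicle and 150 to 181 in caffeine. The other effectors did not share this order. Bax, the pore former, had 57.3 and 46.6 CPM under vehicle and 47.2, 58.3 and 62.9 CPM under caffeine (0.11, SE 0.16; -0.06 without vehicle replicate 2), and 12.2% of its exonic bases are shared with Gm45808 on the same strand. Pmaip1, which encodes the BH3-only protein NOXA, had 0.989 and 1.5 CPM under vehicle and 0.914, 1.33 and 1.18 CPM under caffeine (-0.12, SE 0.37; 0.18 without vehicle replicate 2). Perp, a membrane protein of desmosomes and a p53 death target, ranged from 58.7 to 88.7 CPM (-0.01, SE 0.18), and Fas from 0.635 to 1.20 CPM (0.25, SE 0.43).

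Ei24, an endoplasmic reticulum protein induced by p53, was the only member with every caffeine library below vehicle at the gene level: 116 and 112 CPM under vehicle and 106, 107 and 107 CPM under caffeine. The difference was small (log2 fold change -0.10, SE 0.12). Of its transcripts, described further on, NM_007915 had this order and NM_001199494 did not.

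Among the BCL2 inhibitors of death, Mcl1 had 203 and 202 CPM under vehicle and 188, 203 and 190 CPM under caffeine (log2 fold change -0.07, SE 0.12, 95% interval -0.32 to 0.19). Bcl2l1, which encodes Bcl-xL, had 58.9 and 54.5 CPM under vehicle and 59.5, 51.3 and 58.8 CPM under caffeine (-0.004, SE 0.14, 95% interval -0.30 to 0.29). Bcl2 had 37.9 and 40.7 CPM under vehicle and 27.0, 41.0 and 39.8 CPM under caffeine, so only caffeine replicate 1 was low (-0.13, SE 0.18; 0.04 without it). A p that misses the threshold does not show that the groups were alike. The 95% intervals of these 3 genes, each taken alone, lay between -0.52 and 0.29 on the log2 scale.

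Of the family members that promote death, Bak1, the other pore former, had 114 and 92.6 CPM under vehicle and 79.8, 92.7 and 114 CPM under caffeine (-0.12, SE 0.16; 0.04 without vehicle replicate 1). Bcl2l11, which encodes the BH3-only protein BIM, had 28.9 and 34.4 CPM under vehicle and 41.3, 32.7 and 32.5 CPM under caffeine, high in caffeine replicate 1 (0.16, SE 0.16; 0.04 without it). Bid, which Casp8 cleaves to link death receptors to mitochondria, had 8.03 and 7.97 CPM under vehicle and 8.10, 9.20 and 9.35 CPM under caffeine (0.15, SE 0.19). Every caffeine library was above vehicle, but caffeine replicate 1 only through scaling, since it and vehicle replicate 1 both had 195 counts. Bad ranged from 21.7 to 26.1 CPM, both extremes being vehicle libraries (0.04, SE 0.15). Exons of Bak1, Bad and Bid overlap those of Ggnbp1, Gpr137 and Bcl2l13 on the opposite strand (25.5%, 20.5% and 17.7% of exonic bases), so these counts are uncertain without strand.

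On the caspase side, Casp9, the initiator of the mitochondrial route, had 37.86 and 35.8 CPM under vehicle and 37.87, 39.6 and 40.7 CPM under caffeine, above vehicle in every library by a margin that caffeine replicate 1 barely met (log2 fold change 0.10, SE 0.13; 0.03 without vehicle replicate 2). Casp8, the initiator downstream of death receptors, had 31.2 and 28.2 CPM under vehicle and 25.0, 28.1 and 28.3 CPM under caffeine (-0.13, SE 0.14; -0.06 without vehicle replicate 1). Apaf1, the scaffold of the apoptosome, ranged from 47.9 to 64.8 CPM, both extremes being vehicle libraries (-0.06, SE 0.15). Xiap had 83.0 and 128 CPM under vehicle and 134, 141 and 108 CPM under caffeine. As with Mdm4, vehicle replicate 1 was the lowest library, and the log2 fold change of 0.27 (SE 0.19) was -0.01 without vehicle replicate 1 and 0.59 without vehicle replicate 2.

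**Figure D3:**
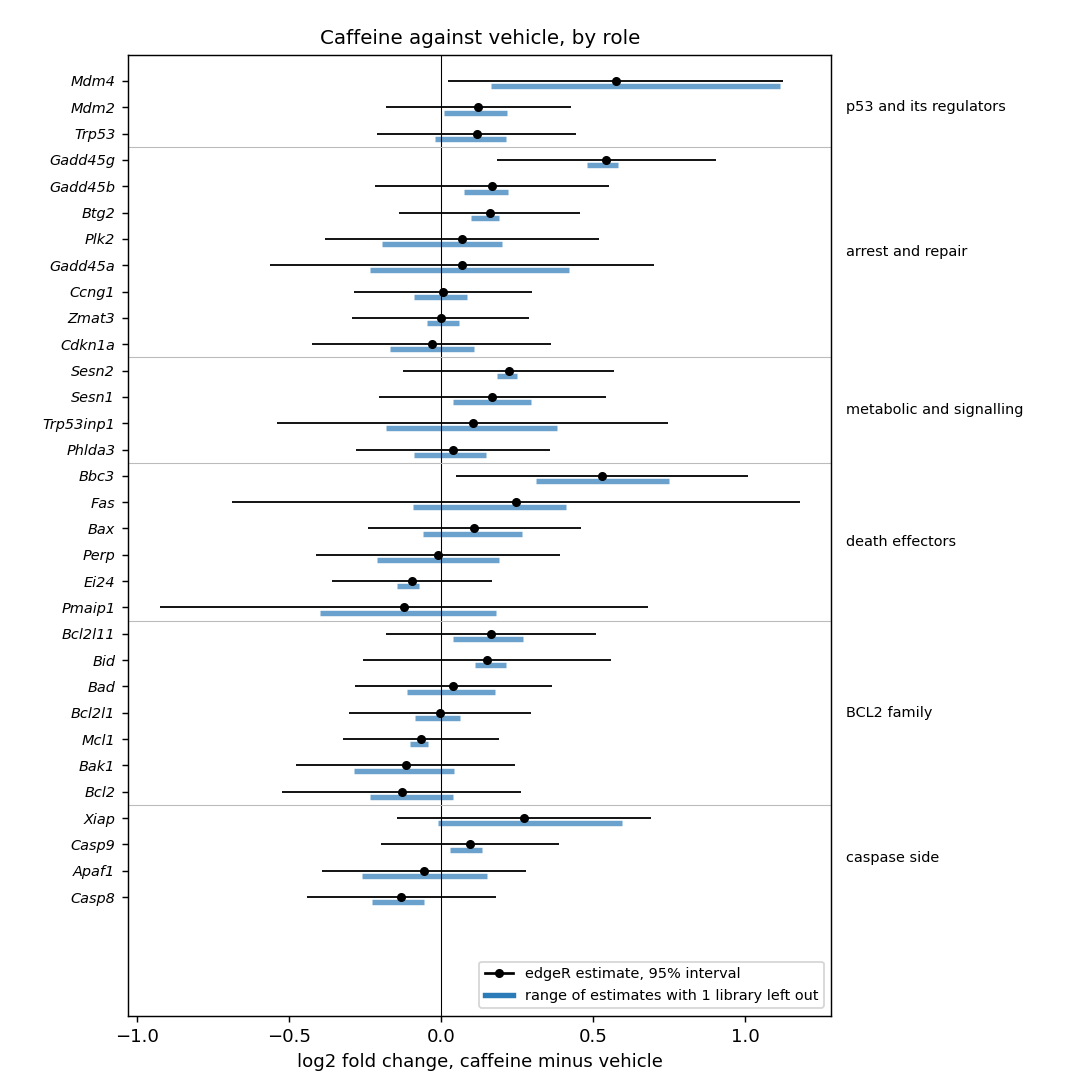
Log2 fold change of each member, caffeine minus vehicle (horizontal axis), with its 95% interval in black and, in blue, the range of estimates when 1 library is left out. Only the intervals of Mdm4, Gadd45g and Bbc3 lie above 0, and the blue ranges of Mdm4 and Xiap are among the widest.

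Set side by side, the p53 genes had a median log2 fold change of 0.11, with 16 of 21 positive, and the BCL2 family and caspase genes one of -0.004, with 5 of 11 positive. Over all genes tested the median was 0.01 and 7333 of 13829 values were positive. With scaling by total counts alone, 19 of the 21 p53 genes, 7 of the 11 others and 66.4% of all genes were positive. By role, the medians were 0.12 for p53 and its regulators (3 of 3 positive), 0.07 for arrest and repair (6 of 8), 0.14 for metabolic and signalling targets (4 of 4), 0.05 for death effectors (3 of 6), -0.004 for the BCL2 family (3 of 7) and 0.02 for the caspase side (2 of 4). The mean log2(CPM + 0.5) of the p53 genes was 4.58 and 4.59 under vehicle and 4.76, 4.71 and 4.68 under caffeine, so every caffeine library was above vehicle. That mean includes Mdm4, Gadd45g and Bbc3, which had the largest log2 fold changes of the p53 genes (0.57, 0.54 and 0.53). It was not taken without them, so the order may rest on these genes. The summed CPM of the p53 genes was 976.2 and 968.7 under vehicle and 1060.3, 1019.5 and 976.4 under caffeine. By that sum, caffeine replicate 3 barely exceeded vehicle replicate 1. For the apoptosis genes the mean log2(CPM + 0.5) was 5.51 and 5.55 under vehicle and 5.49, 5.59 and 5.57 under caffeine, with overlap. The difference of the medians was 0.11, and it was 0.06 without caffeine replicate 1, 0.19 without vehicle replicate 2 and 0.20 without caffeine replicate 3. With Bax, Bbc3 and Pmaip1 counted as BCL2 family members it was 0.09. Since the genes were chosen with earlier results of these data known and genes are not replicates, this difference carries no test.

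**Figure D4:**
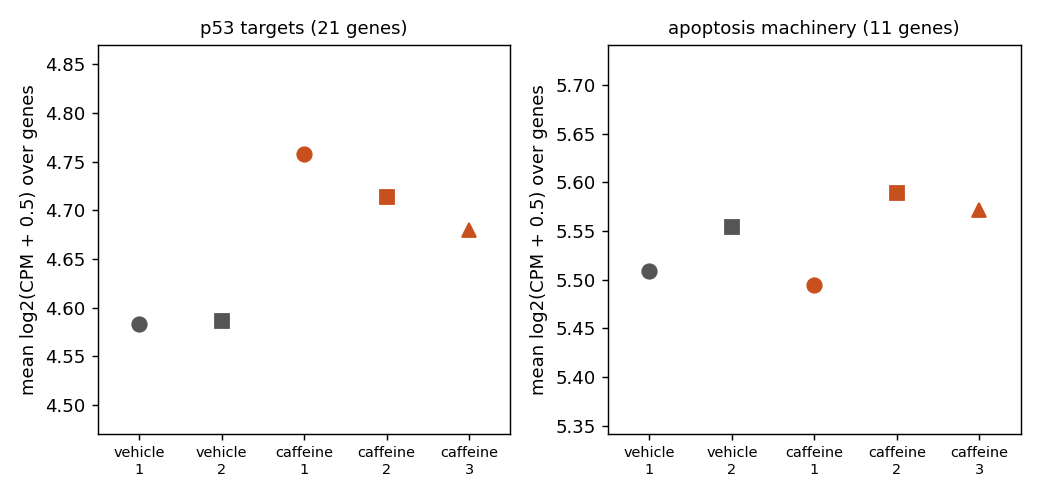
Mean log2(CPM + 0.5) over the 21 p53 genes (left) and over the 11 BCL2 family and caspase genes (right), 1 point per library, on vertical axes of equal span that do not start at 0. The 3 caffeine points on the left, 4.68 to 4.76, are above both vehicle points, and those on the right overlap with vehicle.

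The libraries differed in how often they held the extreme value. Caffeine replicate 1 was the highest library for 13 of the 32 members and the lowest for 8, more of the highest than any other library. Vehicle replicate 2 was the lowest for 10 and vehicle replicate 1 for 7. The sign of the log2 fold change stayed the same whichever library was left out for 14 members, 9 of the p53 genes and 5 of the others. Those 14 were Mdm2, Mdm4, Btg2, Gadd45b, Gadd45g, Sesn1, Sesn2, Bbc3, Bid, Bcl2l11 and Casp9 with positive values and Ei24, Mcl1 and Casp8 with negative ones. Of these 14, Gadd45g, Sesn2 and Bid also stayed within 1.5 times their value, and the other 11 moved further without some library. Proliferation markers, 8 genes such as Mki67, summed to 1422 and 1709 CPM under vehicle and to 1139, 1448 and 1397 CPM under caffeine, so caffeine replicate 1 was the lowest there. Their part in the values of the p53 genes was not tested.

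At the transcript level, 43 of the 45 RefSeq transcripts of the members were tested and 0 passed an edgeR adjusted p of 0.05, as did 0% of all 18418 transcripts tested (smallest adjusted p of a member transcript 0.504). Unadjusted, 4 had a p under 0.05, against 7.36% of all transcripts. Libraries did not overlap for 12 of the 43, against 23.3% of all. Transcript usage, meaning the division of a gene's counts among its transcripts, could be tested in 10 members, and 0 passed an adjusted p of 0.05 (edgeR's diffSpliceDGE), against 3.07% of 2897 genes. Unadjusted, Casp8, Ei24 and Bcl2l11 had a p under 0.05, where 17.7% of all genes did.

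For Ei24, NM_007915 had 65.9 and 85.0 CPM under vehicle and 57.4, 53.7 and 55.0 CPM under caffeine. All caffeine libraries were below vehicle (log2 fold change -0.45, SE 0.14, edgeR adjusted p = 0.528; -0.28 without vehicle replicate 2). The other transcript, NM_001199494, had 49.7 and 26.6 CPM under vehicle and 48.4, 53.2 and 51.9 CPM under caffeine, so only vehicle replicate 2 was low (0.42, SE 0.24; 0.02 without that library). The usage test gave an adjusted p of 0.174 (edgeR).

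For Casp8, the minor transcript NM_001080126 took 7.50% and 6.31% of the gene's counts under vehicle and 2.59%, 2.88% and 3.55% in caffeine. It was low everywhere, at 2.34 and 1.77 CPM under vehicle against 0.664, 0.814 and 0.999 CPM under caffeine, with no overlap (log2 fold change -1.31, SE 0.40, edgeR adjusted p = 0.504; -1.10 without vehicle replicate 1). The main transcript NM_009812 had -0.06 (SE 0.15). The remaining transcript, NM_001277926, has the same start and end as NM_001080126 and was not tested. Its share was 0.751% and 0.632% under vehicle and 0.259%, 0.288% and 0.356% under caffeine, in step with that of NM_001080126. Whether the counting could tell NM_001277926 and NM_001080126 apart was not tested. The usage test gave an adjusted p of 0.170 (edgeR).

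Bcl2l11 is spliced into forms of BIM that differ in length. Its transcript NM_207681 took 12.7% and 15.2% of the counts under vehicle and 6.80%, 9.14% and 6.08% in caffeine (log2 fold change -0.77, SE 0.33, edgeR adjusted p = 0.675). The main transcript NM_207680 had 22.6 and 24.2 CPM under vehicle and 34.3, 27.2 and 27.9 CPM under caffeine, above vehicle in every library (0.35, SE 0.16). The third, NM_009754, overlapped between groups (-0.27, SE 0.41). The usage test gave an adjusted p of 0.272 (edgeR). For Casp9, NM_015733 took 59.6% and 71.0% of the counts under vehicle and 71.6%, 88.3% and 66.7% under caffeine, with overlap (usage adjusted p = 0.493, edgeR). Shares of transcripts rest on how the authors' counting divided shared reads, an error that these tests do not hold.

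**Figure D5:**
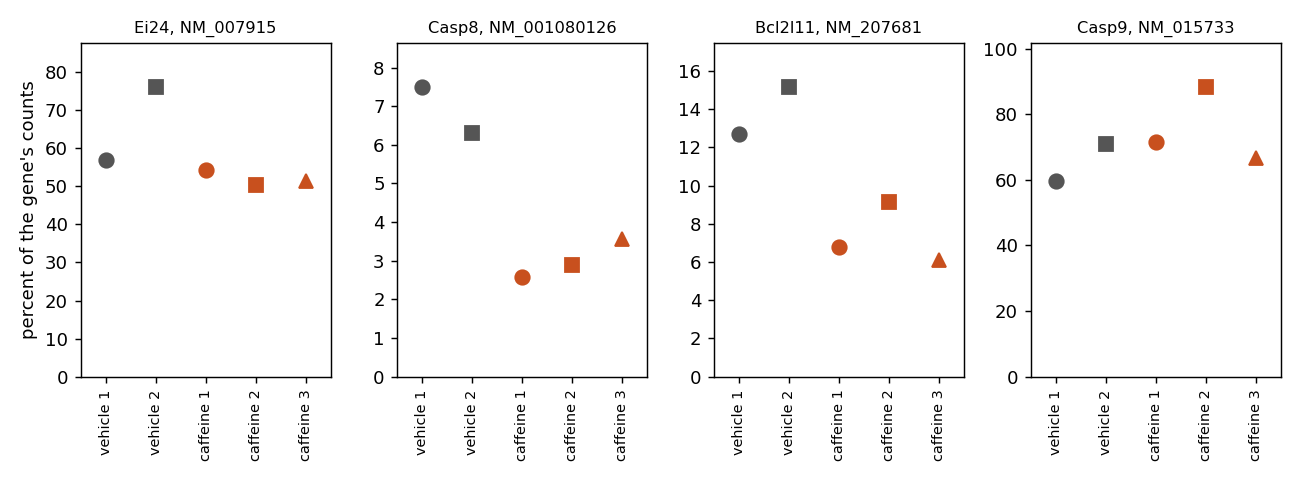
Share of the gene's counts (vertical axis, percent, from 0) taken by 1 transcript of Ei24, Casp8, Bcl2l11 and Casp9 in each library. The Ei24, Casp8 and Bcl2l11 transcripts are lower in every caffeine library than in both vehicle libraries, and the Casp9 transcript overlaps.

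The rest of the pathway was read from a list of 80 further genes, of which 79 were found and 66 passed the filter. None passed the edgeR adjusted p of 0.05 in either direction, 2 of 66 had an unadjusted p under 0.05, and the median log2 fold change was 0.01. The 24 other p53 targets, all tested, had a median of 0.04 with 16 positive and 8 negative. Upstream kinases and partners had a median of -0.07 (11 tested, 3 positive), further BCL2 family genes 0.05 (8 tested, 5 positive), further caspases -0.01 (4 tested, 2 positive), inhibitors and mitochondrial factors -0.03 (12 tested, 5 positive) and death receptor genes -0.03 (7 tested, 3 positive).

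The smallest p in this list belonged to Bcl2l2, a further inhibitor of death that encodes Bcl-w. It had 18.6 and 21.0 CPM under vehicle and 30.6, 27.8 and 30.2 CPM under caffeine, with no overlap. The log2 fold change was 0.58 (SE 0.15, edgeR adjusted p = 0.517) and ran from 0.49 to 0.64 with 1 library left out. In the annotation, 13.3% of its exonic bases are shared with Gm20521 on the same strand, so its count is uncertain. Bcl2l12 had 0.39 (SE 0.22; 0.16 without caffeine replicate 3), and 28.9% of its exonic bases overlap Gm15545 on the opposite strand.

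Among the other p53 targets, Polk, a DNA polymerase that copies past damage, had 0.41 (SE 0.20) with all caffeine libraries above vehicle, and Rps27l -0.32 (SE 0.15) with all below. Rps27l had -0.11 without vehicle replicate 1. The kinase genes that activate p53 had Prkdc at -0.35 (SE 0.18) and Atm at -0.33 (SE 0.21), and without vehicle replicate 2 they had -0.16 and 0.01. Casp2, a caspase, had 0.20 (SE 0.13). Cycs, whose cytochrome c triggers the apoptosome and serves respiration, had 564 and 479 CPM under vehicle and 375, 475 and 392 CPM under caffeine (-0.33, SE 0.14), and Aifm1 had -0.23 (SE 0.13). Without vehicle replicate 1 these were -0.21 and -0.15. Traf2 (0.13, SE 0.14; 0.08 without vehicle replicate 1) and Cradd (-0.14, SE 0.19; -0.07 without vehicle replicate 2) had the smallest p among the death receptor genes. The 13 listed genes with too few counts to test included Casp1, Casp4, Casp12, Casp14, Tnf, Tnfsf10, Hrk, Cdkn2a and Trp73.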

How the data were processed

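RNA of pooled embryonic ventricles was sequenced in 2 vehicle and 3 caffeine libraries. The authors deposited estimated counts per gene and per transcript of RefSeq and Ensembl annotation, per the file headers, with no scaling between libraries. TopHat and Partek, with mm10 (GRCm38), are the tools and build in the submitters' processing notes. Whether counting used strand is not given in the sources used here. Read-sharing left 6 members with gene counts more than 0.05 from a whole number: Bad, Casp8, Ei24, Gadd45a, Trp53 and Zmat3.

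Counts were rounded, filtered with filterByExpr, scaled by TMM (factors 0.970 to 1.02) and tested with edgeR 4.0.16 in R 4.3.3 (glmQLFit, robust, glmQLFTest, two-sided), adjusted over all features tested. SE is the fold change size over the square root of F. CPM use TMM-scaled totals. Alternatives were other scalings and filters, DESeq2 1.42.0, limma 3.58.1 (voom), the Ensembl table, the replicate block and leaving out each library. The labels count each pool as 1 sample, so p-values measure the spread between these pools. Deposited stops lay 1 base past the reference end for 5909 of 8562 genes with the same start, so ends are stop minus 1. Lengths are from GENCODE M21 transcripts linked to the RefSeq accession. The steps were tested on simulated counts, where unchanged genes made up more of the calls than the adjusted p allows and most of the smaller changes were not called.

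Members and lists were chosen with earlier results of these data known. Levels in every library are given for 12 fixed members and the 10 others with the smallest p, and from the further list for the 2 genes with the smallest p in each subgroup or their fold change. A result that this rule names is not reported here. No protein sequences were used here. Of 135 symbols in the further and marker lists, 132 matched directly, 2 by an older symbol and 1 not.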

Additional observations from a re-analysis of the deposited data

How the results depend on the processing

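No member passed under any alternative run, and the p53 gene median stayed positive in all of them. Another run left out the TMM factors and scaled libraries by their total counts alone. Its medians were 0.14 for all members, 0.17 for the p53 genes and 0.058 for the apoptosis genes. Every value shifts upward by about the same amount in that run (the median of all genes went from 0.01 to 0.07). The number of genes called over the whole table, 1 here, was 6 with no low-count filter, 18 with DESeq2, 2 with the Ensembl table and 52 with the replicate number as a block; the cause was not tested. With 1 library left out it ran from 0 to 18, the median of all members from 0.034 to 0.11, that of the p53 genes from 0.094 to 0.17, that of the apoptosis genes from -0.084 to 0.042 and the difference of the medians from 0.063 to 0.20. Fits with 1 vehicle library assume that it varies like the caffeine libraries. The replicate numbers are not said to pair the pools, so the block is given only as an alternative. Deviations from the group means correlated at -0.02 (number 1) and 0.12 (number 2) between libraries with the same number. Vehicle replicate 1 and caffeine replicate 3, with unlike numbers, also had 0.12. Deviations from a group mean offset each other within the group, so these correlations are tied to one another. They cannot decide whether the pools were paired. Caffeine replicate 3 has no vehicle library of its number and adds nothing to the contrast in the block fit. With the block the p53 median was 0.14 and the apoptosis median -0.03, and 0 members passed (smallest adjusted p 0.112, Mdm4). The Ensembl table gave 2 members, Zmat3 and Bcl2l1, the opposite sign, both at values within 0.01 of 0. Depth limits Fas and Pmaip1, which had the fewest counts of the members.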
